A study of Mus musculus with 6 samples.

Results

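The EGF receptor family and its ligands were examined in primary mouse keratinocytes with and without active NFATc1. The set was 10 genes fixed by name: the receptor genes Egfr, Erbb2 and Erbb3 and the ligand genes Egf, Tgfa, Hbegf, Btc, Ereg, Epgn and Areg. A gene was taken from the array rows whose annotation gives its symbol alone. By that rule 9 of the 10 genes were found, each with 1 row, among 19935 genes in the table, and Areg (amphiregulin) was not analysed here. A further row annotated to both Erbb2 and Sympk was left out by the same rule, and its difference between the groups was -0.06.

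The cells were keratinocytes of wild type CD1 mice in low-calcium growth medium, and all were infected with a retrovirus. In 3 cultures the MSCV virus carried caNFATc1, a human NFATc1 that is constitutively active through mutations of its autoinhibitory domain. In 3 control cultures the MSCV vector was empty. Total RNA was measured on 6 arrays, and the replicate numbers 1, 2 and 3 come from the sample titles. NFATc1 was thus supplied from a virus in culture, and no group had its own NFATc1 removed.

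The receptors of this family are tyrosine kinases of the cell surface that act in pairs. EGF, transforming growth factor alpha, HB-EGF, betacellulin, epiregulin, epigen and amphiregulin are made as membrane-bound precursors, and metalloproteases cut them free. EGFR binds these ligands directly, ErbB2 has no ligand of its own and serves as a partner, and ErbB3 has little kinase activity and binds neuregulins. In epidermis the pathway supports keratinocyte growth and migration and restrains differentiation, and keratinocytes make several of the ligands themselves. The comparison asks whether transcripts of this loop differ when NFATc1 is active.

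The deposited values are log2 values relative to each row's own median over the 6 arrays. They show differences between cultures but not how abundant a transcript is, so the order of abundance of the receptors or ligands is not reported. For the same reason the keratinocyte markers could be compared between groups but not read as present or absent. Of 8 such markers the median difference was 0.01 and 1 rose, Trp63, the p63 transcription factor gene (0.42 ± 0.08, SE, 3 pairs, limma adjusted p = 0.0444, and 0.322 without the block). Krt15, Krt5 and Krt14, keratins of basal cells, differed by -0.58 ± 0.18, 0.03 ± 0.06 and -0.02 ± 0.06, and the other 4 markers lay between -0.08 and 0.17. Replicate 1 stood apart in both groups: Xist was lower there than in the other cultures by at least 5.97 and the Y-linked Eif2s3y higher by at least 2.99. Rcan1, a known NFAT target, rose 10.4-fold in caNFATc1 cells (log2 difference 3.38 ± 0.10, limma adjusted p = 6.85e-04). In total RNA of a culture, more cells that express a gene and more of its RNA per cell cannot be told apart.

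Every difference given is a log2 difference in which the vector control value was taken from the caNFATc1 value. Its error is limma's standard error over the 3 same-numbered pairs unless another setting is named. Where a replicate was left out of both groups, the difference, its error and any call rest on 2 pairs. A gene is said to rise or fall where its p, adjusted by Benjamini-Hochberg over 19935 genes, was under 0.05 with the replicate number as a block. By that rule 1 of the 9 genes, Epgn, rose and none fell. Over all genes 3.73% rose and 2.38% fell. At an unadjusted limma p under 0.05, 2 of the 9 were higher and 2 lower, against 11.7% and 9.78% of all genes. Without the block limma called 0 of the 9, with 1 of them at an unadjusted p under 0.05, and it called 0.206% of all genes higher and 0.01% lower. The median difference of the 9 genes was 0.04, against -0.01 for all genes, with 5 positive and 4 negative. Over all genes 47.4% of differences were positive. The plot of each gene by culture shows the values on which these counts rest.

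**Figure D1:**
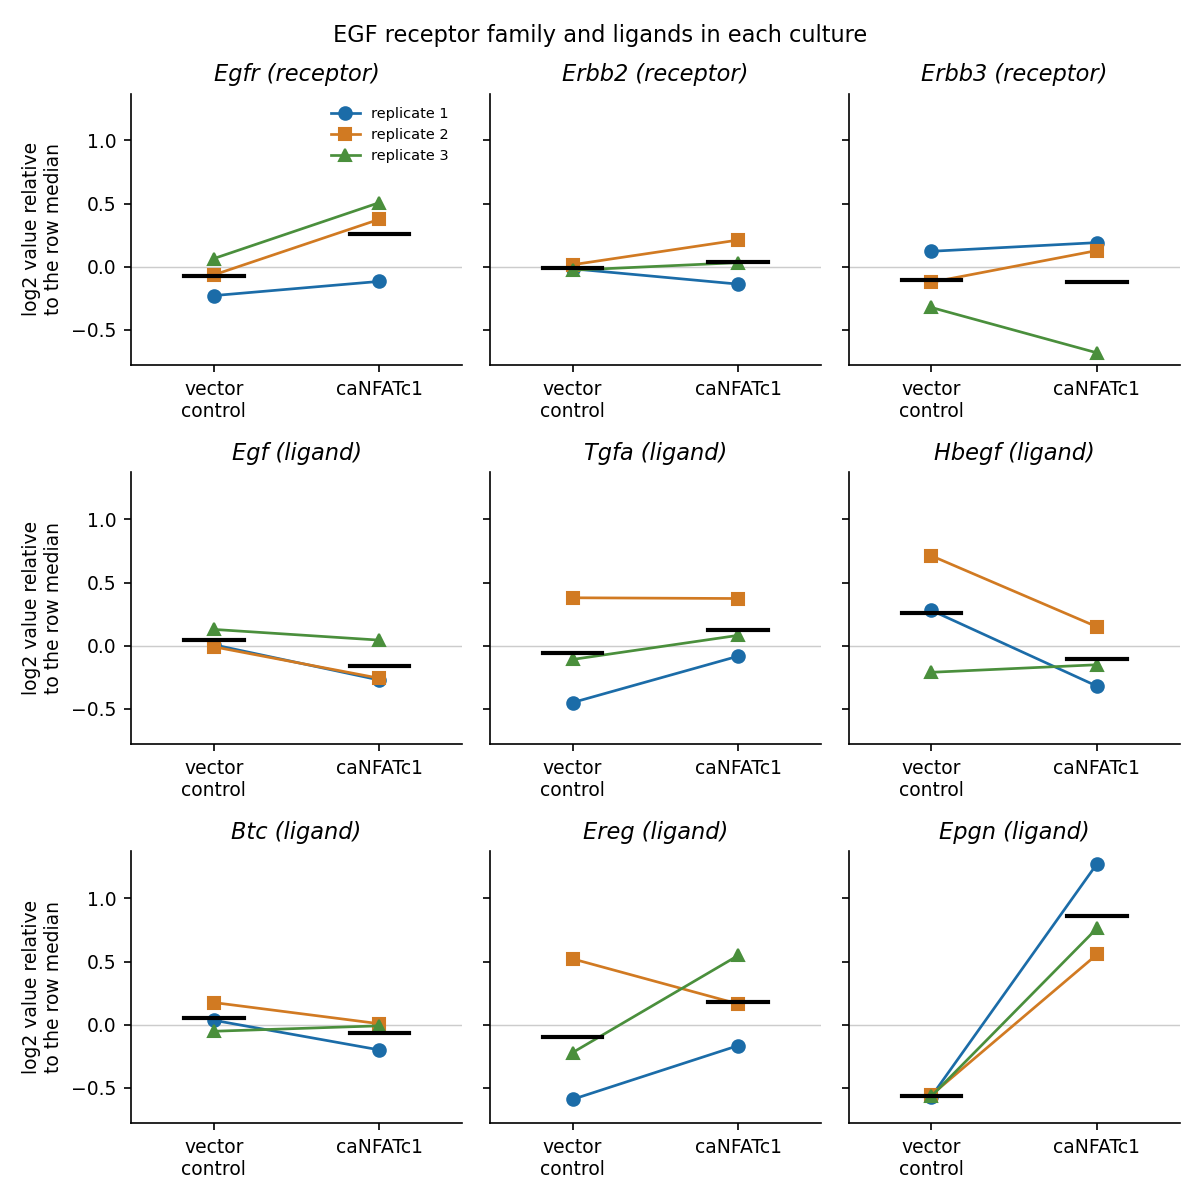
Log2 value relative to the row's median (vertical axis) for 9 genes in vector control and caNFATc1 cultures, with a line joining cultures of the same replicate number and a black bar at each group mean (n = 3). The groups are apart for Epgn and overlap for the other 8 genes.

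Epgn encodes epigen, an EGFR ligand of epithelia. Its values were -0.57, -0.56 and -0.57 in vector control replicates 1, 2 and 3, and 1.27, 0.56 and 0.76 in caNFATc1 replicates 1, 2 and 3. All caNFATc1 cultures lay above all controls, and the zero of the scale is the row's median, midway between the groups. Groups without overlap, caNFATc1 above, were found for 9.64% of all genes. The controls spanned 0.01 and the caNFATc1 cultures 0.72, so the spread lay in the caNFATc1 group. Epgn rose 2.69-fold (log2 difference 1.43 ± 0.14, 95% interval 1.08 to 1.78, limma adjusted p = 0.00983), by 1.84, 1.11 and 1.33 in pairs 1, 2 and 3. It held place 154 of 19935 genes by p. Without the block the difference is the same by construction and the adjusted p was 0.0548 (SE 0.18). Epgn also passed the blocked test without replicate 1, 2 or 3 of both groups, with differences of 1.22, 1.59 and 1.48 (limma adjusted p = 0.0114, 0.00597 and 0.0037).

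Some markers of another cell type also differed between the groups, while most did not pass the test. Of 7 fibroblast markers, 5 were positive and 1, the collagen gene Col3a1, rose (1.20 ± 0.19, limma adjusted p = 0.0296, and 0.108 without the block). The mean of the 7 markers ran from -0.14 to 0.00 in vector control and from 0.11 to 0.63 in caNFATc1 cultures. Their mean differed by 0.11, 0.19 and 0.77 in pairs 1, 2 and 3. Pdgfra, a growth factor receptor gene of fibroblasts, differed by 0.83 ± 0.20 with no overlap between the groups (limma adjusted p = 0.0778), and the collagen gene Col1a1 by 0.48 ± 0.27. The other 4, Dcn, Col1a2, Lum and Thy1, lay between -0.14 and 0.08. No melanocyte marker of 7, immune marker of 6 or endothelial marker of 4 was called by limma, with or without the block, and none had an unadjusted p under 0.05 with it. The part of fibroblast RNA in the Epgn result was not tested.

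Since Epgn rose and its genomic neighbours are ligands too, the bases before their start sites are shown for Epgn and Btc, with Egfr as the receptor gene. Areg lies in the same cluster but has no expression value here, so its window is not printed (it held 1 match, 163 bases before the start). For Ereg no window was available, so it is named only. These are the 250 bases before the annotated start, 5′ to 3′ on the gene's strand, from RefSeq on GRCm38.p6. Epgn lies at chr5:91027267-91027516 on the plus strand, Btc at chr5:91402995-91403244 on the minus strand and Egfr at chr11:16751953-16752202 on the plus strand. Capitals mark the core of the NFAT recognition sequence, GGAAA, on either strand (TTTCC as printed for the other strand).
Epgn: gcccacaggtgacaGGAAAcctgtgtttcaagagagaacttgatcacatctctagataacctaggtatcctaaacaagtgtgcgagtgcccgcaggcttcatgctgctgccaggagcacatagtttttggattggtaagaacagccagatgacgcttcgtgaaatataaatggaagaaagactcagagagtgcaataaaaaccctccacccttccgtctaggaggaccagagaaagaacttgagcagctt
Btc: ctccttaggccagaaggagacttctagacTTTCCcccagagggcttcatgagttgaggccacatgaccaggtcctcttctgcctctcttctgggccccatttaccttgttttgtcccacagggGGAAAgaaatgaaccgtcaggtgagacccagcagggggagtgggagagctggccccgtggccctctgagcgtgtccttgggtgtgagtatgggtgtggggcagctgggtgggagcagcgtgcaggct
Egfr: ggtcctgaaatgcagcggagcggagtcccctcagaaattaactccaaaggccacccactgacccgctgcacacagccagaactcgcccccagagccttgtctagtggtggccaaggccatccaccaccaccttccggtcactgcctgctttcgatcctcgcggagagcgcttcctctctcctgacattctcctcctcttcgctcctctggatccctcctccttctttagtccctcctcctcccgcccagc
Epgn held 1 match, which began 236 bases before the start, and Btc held 2, which began 221 and 127 bases before it. The Egfr window held 0. Among windows of the set that are not printed, those of Erbb2 and Tgfa also held 0, and each window of Egf held 1. Hbegf was left out of this count, and for Erbb3 no window was available. Of 32851 promoter windows of this length in the table, 55.6% held the core at least once. The AP-1 motif TGANTCA, read on both strands and not overlapping a GGAAA match here, was in none of the 3 printed windows and in 6.75% of all. A match of these letters is a description of the window, and binding was not measured.

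In the order of protein-coding genes of GRCm38.p6, Epgn, Ereg, Areg and Btc follow each other on chromosome 5. Among the 3 that were measured, Epgn rose, while the Ereg and Btc differences were 0.28 ± 0.21 and -0.12 ± 0.08 (limma adjusted p = 0.533 and 0.48). On the Epgn side, Mthfd2l, a mitochondrial folate enzyme gene, differed by -0.20 ± 0.08 and the chemokine gene Cxcl2 by -0.04 ± 0.07. On the Btc side, Parm1 differed by 0.59 ± 0.20 and the ubiquitin ligase gene Rchy1 by 0.16 ± 0.08. None of these 4 neighbours passed the test (limma adjusted p between 0.16 and 0.826). Whether Epgn differed from its neighbours was not tested.

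**Figure D2:**
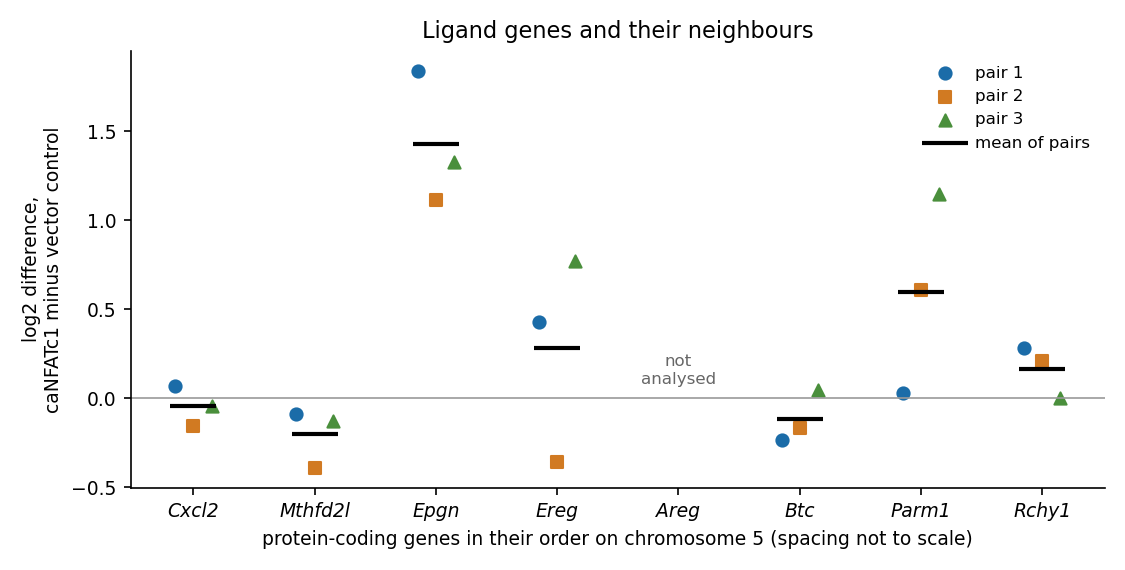
Log2 difference, caNFATc1 minus vector control (vertical axis), in pairs 1, 2 and 3 for protein-coding genes in their order on chromosome 5, with a black bar at the mean of the pairs. Epgn lies between 1.11 and 1.84 in every pair, and Ereg is negative in pair 2 and positive in pairs 1 and 3.

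Ereg encodes epiregulin, a ligand of EGFR and ErbB4. Its values were -0.59, 0.52 and -0.22 in vector control replicates 1, 2 and 3 and -0.16, 0.16 and 0.55 in the caNFATc1 cultures. The groups overlapped, and the controls alone spanned 1.11, the widest span of the 9 genes in vector control. The pair differences were 0.43, -0.36 and 0.77, so pair 2 went against the other pairs. Without replicate 2 the difference was 0.60 ± 0.12 (limma adjusted p = 0.0607) and without replicate 3 it was 0.03 ± 0.18 (0.968).

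Btc encodes betacellulin, which also binds both EGFR and ErbB4. Its values were 0.04, 0.18 and -0.05 in vector control replicates 1, 2 and 3 and -0.20, 0.01 and -0.01 in the caNFATc1 cultures. The groups overlapped, and the interval of the difference ran from -0.32 to 0.08. Differences of -0.23, -0.17 and 0.04 in the pairs show no common sign.

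Hbegf encodes heparin-binding EGF-like growth factor, which keratinocytes release at wounds and which drives their migration. Its values were 0.28, 0.71 and -0.21 in vector control replicates 1, 2 and 3 and -0.32, 0.15 and -0.15 in the caNFATc1 cultures. The groups overlapped, since the control of replicate 3 was low. The difference was -0.37 ± 0.14 (95% interval -0.72 to -0.02, limma adjusted p = 0.209 with the block and 0.634 without), and it was -0.60, -0.56 and 0.06 in pairs 1, 2 and 3. Without pair 3 the difference was -0.58 ± 0.10 and passed the blocked test (limma adjusted p = 0.0191). Since pair 3 was the only positive one, leaving it out could only bring the others into accord, and no fall is concluded from it. Without replicate 1 or 2 the limma adjusted p was 0.469 and 0.535.

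Tgfa encodes transforming growth factor alpha, a ligand that keratinocytes make for themselves. Its values were -0.45, 0.38 and -0.11 in vector control replicates 1, 2 and 3 and -0.08, 0.37 and 0.08 in the caNFATc1 cultures. The groups overlapped and in both of them replicate 2 was highest and replicate 1 lowest. The difference was 0.18 ± 0.09 (limma adjusted p = 0.315), with 0.37, -0.01 and 0.19 in the pairs. It was 0.09 without replicate 1, and -0.011 without vector control replicate 1 and without the block.

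Egf encodes the founding member of the ligand family. Its values were 0.01, -0.01 and 0.13 in vector control replicates 1, 2 and 3 and -0.27, -0.26 and 0.04 in the caNFATc1 cultures. All 3 pairs were negative (-0.28, -0.25 and -0.08), as they were for 21.3% of all genes, while the groups overlapped through caNFATc1 replicate 3. The difference of -0.20 ± 0.07 did not pass (limma adjusted p = 0.173, and 0.497 without the block).

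Control cultures of different number differed among themselves for several ligands. In vector control, replicate 2 had the highest value of Tgfa, Hbegf, Btc and Ereg, and also of Epgn, whose controls spanned 0.01. The spans over the 3 controls were 1.11 for Ereg, 0.92 for Hbegf and 0.83 for Tgfa, each wider than the gene's difference between the groups. Btc and Egf spanned 0.23 and 0.14.

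Egfr encodes the EGF receptor itself, the kinase to which these ligands bind. Its values were -0.23, -0.06 and 0.06 in vector control replicates 1, 2 and 3 and -0.12, 0.38 and 0.51 in the caNFATc1 cultures. In each pair the caNFATc1 culture was the higher, as for 21.6% of all genes. The groups overlapped because caNFATc1 replicate 1 lay below vector control replicates 2 and 3. The difference was 0.33 ± 0.09, which is 1.26-fold (95% interval 0.11 to 0.55), and it did not pass (limma adjusted p = 0.098, and 0.518 without the block). The pair differences were 0.11, 0.44 and 0.44. Without replicate 1 the difference was 0.44 ± 0.07 and passed (limma adjusted p = 0.0458), and without replicate 2 or 3 it was 0.28 each time (0.330 and 0.283).

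Erbb2, the partner kinase without a ligand, had values of -0.02, 0.02 and -0.03 in vector control replicates 1, 2 and 3 and -0.14, 0.21 and 0.03 in the caNFATc1 cultures. Its difference was 0.04 ± 0.08 (limma adjusted p = 0.844, 95% interval -0.16 to 0.25). Erbb3, the neuregulin receptor, had values of 0.12, -0.12 and -0.32 in vector control and 0.19, 0.13 and -0.68 in the caNFATc1 cultures. Its difference was -0.01 ± 0.12 (limma adjusted p = 0.974, 95% interval -0.32 to 0.29), with pairs at 0.07, 0.25 and -0.36. For both genes the groups overlapped and the pairs disagreed in sign. These intervals are not adjusted for the number of genes and are not limits of detection. With 3 pairs, a gene that did not pass is not shown to be unchanged.

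**Figure D3:**
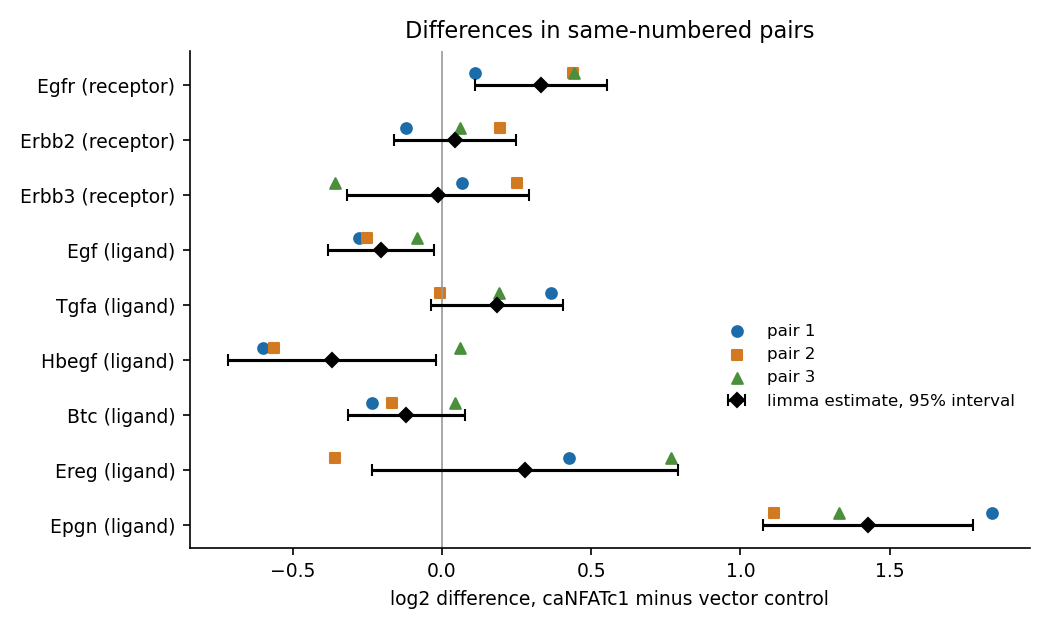
Log2 difference, caNFATc1 minus vector control (horizontal axis), for each gene: coloured symbols are the 3 same-numbered pairs and black diamonds the limma estimate with its 95% interval, which is not adjusted for the number of genes. Epgn lies at 1.43, and the other 8 estimates lie between -0.37 and 0.33.

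By a rule on the Pearson correlation of the 6 values, among 18607 named genes outside the set, the genes most like Epgn were Entpd7 (r = 0.997), Orai2 (0.996) and Apbb1 (0.996). Orai2 encodes a store-operated calcium channel protein and Entpd7 a nucleotide-hydrolysing enzyme. They rose by 1.34 ± 0.13, 1.00 ± 0.13 and 1.55 ± 0.12 (limma adjusted p = 0.00983, 0.0168 and 0.00604). The genes most like Egfr were Olfr1307 (r = 0.998), Igsf3 (0.996) and Zeb2 (0.995). Of these Zeb2, a repressor of epithelial genes, rose by 0.72 ± 0.11 (limma adjusted p = 0.0293), and the differences of Olfr1307 and Igsf3 were 0.12 ± 0.07 and 0.10 ± 0.07. With 6 arrays and so many genes, these correlations are a ranking only. Genes chosen for likeness to Epgn or Egfr over the same 6 values share that gene's pattern between the groups. The rises of Entpd7, Orai2, Apbb1 and Zeb2 are therefore not separate results.

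Other genes of the pathway were read from 7 lists. Of 110 genes, 102 were measured, and 5 rose and 2 fell, which is 4.90% and 1.96% against 3.73% and 2.38% of all genes. These shares of genes that passed are near the background. At an unadjusted limma p under 0.05, the lists of adaptors and of early genes held the largest shares. The Ras-ERK and PI3K-AKT lists held 0. An unadjusted limma p under 0.05 was found for 1 of 5, 2 of 11, 5 of 18, 12 of 28, 0 of 8, 0 of 9 and 12 of 23 genes of the lists, in the order in which they are described, against 21.5% of all genes. Their median difference was 0.05, against -0.01 for all genes. None of the 102 passed without the block, where 0.216% of all genes did.

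Among ErbB4 and the neuregulins, which are ligands of ErbB3 and ErbB4, 1 of 5 fell and none rose. Nrg2 (neuregulin 2) had values of -0.04, 0.80 and 0.68 in vector control replicates 1, 2 and 3 and -1.72, 0.04 and -0.75 in the caNFATc1 cultures. The groups overlapped by the control of replicate 1, yet every pair was negative (-1.69, -0.76 and -1.43). Nrg2 fell by 1.29 ± 0.17 (limma adjusted p = 0.0203, and 0.331 without the block). Nrg1 and Nrg3 differed by -0.16 and -0.08 without passing.

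Of 11 genes of ligand shedding, 1 rose and none fell. Adam12, a metalloprotease that can release HB-EGF, had values of -0.49, -0.24 and -0.62 in vector control and 0.35, 0.24 and 0.30 in caNFATc1 cultures, with no overlap. It rose by 0.75 ± 0.10 (limma adjusted p = 0.0203, and 0.0628 without the block). Adam19 and Rhbdf2 differed by -0.34 ± 0.07 and 0.17 ± 0.07 without passing (limma adjusted p = 0.0538 and 0.239). Adam17, the main sheddase of several of these ligands, differed by 0.14 ± 0.07 (0.312) and was named for that role after its value was seen.

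Of 18 inhibitors and turnover genes of the receptors, none passed. Those with the lowest p were Ptprj, a receptor phosphatase (0.27 ± 0.07, limma adjusted p = 0.0764), and Rnf41, a ubiquitin ligase that acts on ErbB3 (0.20 ± 0.06, 0.139). Errfi1 and Lrig1, inhibitors that bind the receptors, differed by 0.03 ± 0.07 and 0.14 ± 0.07 and were also named after their values were seen.

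Of 28 adaptors and proximal effectors, 2 rose and none fell. Among the 28 differences 21 were positive, against 47.4% of those of all genes. Gab1 and Gab2, docking proteins that link receptors to PI3-kinase and SHP2, rose by 0.44 ± 0.07 and 0.88 ± 0.15 (limma adjusted p = 0.031 and 0.0356 with the block, 0.358 and 0.197 without). Gab2 had values of -0.06, -0.49 and -0.70 in vector control and 0.68, 0.06 and 0.65 in caNFATc1 cultures, with no overlap. The adaptor gene Nck1 and the PI3-kinase gene Pik3cb had differences of 0.33 and -0.34 that missed the threshold (limma adjusted p = 0.0833 and 0.0936).

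None of 8 genes of the Ras-ERK core passed. The kinase genes Rps6ka3 and Map2k2 differed by 0.19 and -0.23. The same held for 9 genes of the PI3K-AKT arm, where Mtor and Rheb differed by 0.15 and -0.14.

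Of 23 early and feedback genes that ERK signalling is known to induce, 2 rose and 1 fell. Dusp6, a phosphatase that inactivates ERK, had values of -1.23, -0.48 and -0.43 in vector control and 0.43, 0.57 and 0.72 in caNFATc1 cultures, with no overlap. It rose by 1.29 ± 0.13 (limma adjusted p = 0.00983, and 0.0973 without the block). Spry1, an inhibitor of receptor tyrosine kinase signalling, rose by 0.49 ± 0.09 (0.037 by limma with the block, and 0.387 without). Fosl1, an AP-1 subunit, fell by 1.04 ± 0.13 (0.0158 by limma with the block, and 0.653 without), with differences of -1.40, -0.90 and -0.80 in the pairs, while its groups overlapped. Phlda1 and Spry2 had differences of -0.40 and 0.29 that missed the threshold (limma adjusted p = 0.0551 and 0.061). The list's median difference was -0.02, with 11 positive and 12 negative.

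**Figure D4:**
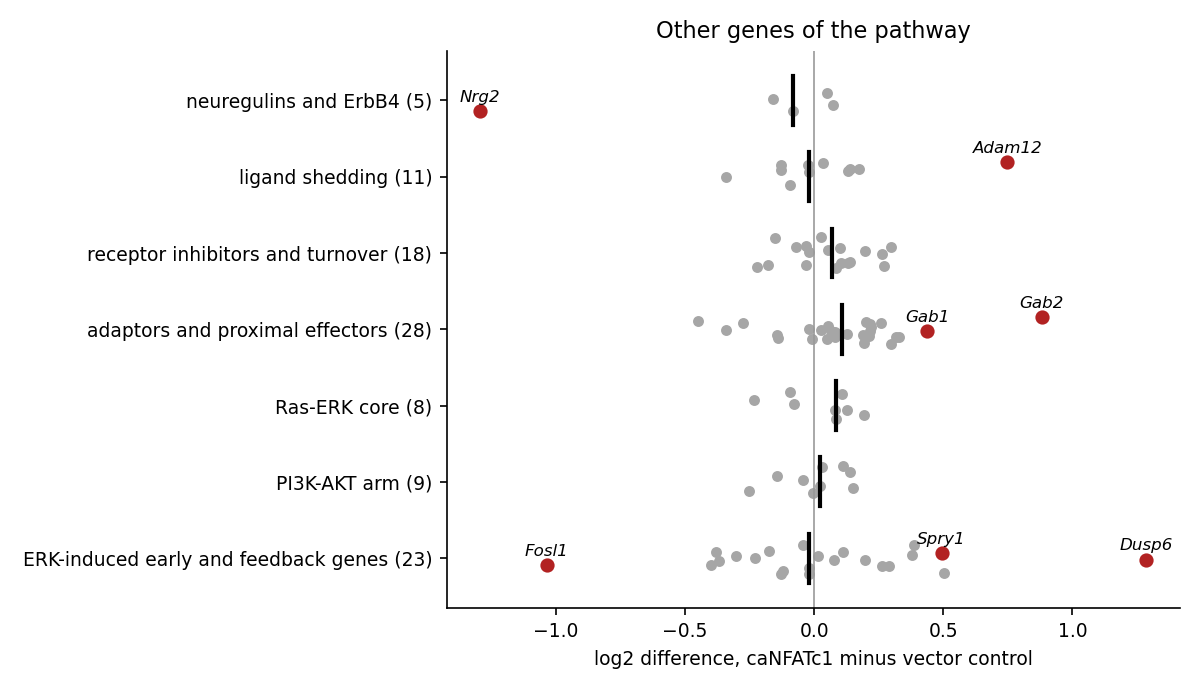
Log2 difference, caNFATc1 minus vector control (horizontal axis), for each measured gene of 7 pathway lists (number of genes in brackets), with a black bar at each list's median. Red points are genes that passed the blocked limma test, from Nrg2 at -1.29 to Dusp6 at 1.29, and grey points did not pass.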

How the data were processed

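RNA from 6 cultures was measured on single-colour arrays with biotin-labelled cDNA. The deposited data are 1 table of 28815 rows of log2 values. They came from RMA, with mm8 as the build, per the submitters' processing notes. For the software version and any row filter, the sources used here give nothing. Every row's median was 0 within 1e-06, so brightness was lost and no filter on dim rows was possible. The base of the logarithm was taken as 2 because RMA gives log2 values. The number of arrays limits the precision.

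Rows were named through the platform annotation: 21780 carried 1 symbol, 1605 several and 5430 none. Rows of a gene were averaged, giving 19935 genes. Symbols were checked by Entrez number against GRCm38.p6, and 0 changed. The comparison used lmFit and eBayes of limma 3.58.1 in R 4.3.3, with the replicate number as a block, 2-sided, adjusted by Benjamini-Hochberg over all genes at 0.05. The rule that defines the genes asks for pairing by the number in the titles. Deviations from group means correlated across genes at 0.71, 0.61 and 0.57 for same-numbered arrays and between -0.60 and 0.18 otherwise. The series calls the replicates biological, and no label ties equal numbers to 1 source of cells. The genes, lists and tests were chosen with earlier results of these data known. All measured members were named, plus list genes that passed and up to 2 more per list by p, neighbours on chromosome 5, and 3 genes most correlated with Epgn and Egfr. The fit was tested on simulated data. The alternatives were the fit without the block, omitted cultures or pairs, other normalizations, other moderation and other uses of rows.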

Additional observations from a re-analysis of the deposited data

How the results depend on the processing

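Epgn stayed positive in all 16 alternatives (1.22 to 1.59) and passed in 11. It did not pass without the replicate block (1.43, limma adjusted p = 0.0548), where 0 of the 9 genes rose, nor in 4 of the 6 unblocked settings that also left out 1 culture (0.125 to 0.239). Over all genes the unblocked fit called 41 higher and 2 lower. With every row of the table fitted and adjusted, the counts were 411 and 179, which are not directly comparable with counts over the 19935 genes. With the block, leaving out a pair gave 509 to 605 genes higher and 202 to 481 lower, 1 to 2 of the 9 genes higher and 0 to 1 lower. The genes added were Egfr without replicate 1 and Hbegf without replicate 3. Without the block, leaving out vector control replicate 1, 2 or 3 left 6, 2 and 0 calls upward and 0 downward in each case. Leaving out caNFATc1 replicate 1, 2 or 3 gave 19, 74 and 2 higher and 0, 9 and 0 lower. Where both counts were 0 (without vector control replicate 3), limma gave 1128 genes higher and 985 lower at an unadjusted p under 0.05. The differences of Erbb2, Erbb3 and Tgfa, none of which passed, changed sign when some cultures were left out. With the block, leaving out a pair gave -0.031 to 0.13 for Erbb2 and -0.15 to 0.16 for Erbb3. Without the block, leaving out 1 culture gave -0.043 for Erbb2 (caNFATc1 replicate 2), 0.10 and 0.27 for Erbb3 (vector control replicate 1 and caNFATc1 replicate 3) and -0.011 for Tgfa (vector control replicate 1). Quantile normalization, centring of columns, robust moderation, single rows, medians of rows and adjustment over every row changed no call among the 9 genes. Apart from the settings named, the causes of lost calls were not tested.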
